A study of Mus musculus with 4 samples.

Results

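The genes described here are 10 transcription factor genes known for specifying striatal projection neurons (Isl1, Ebf1, Sp9, Foxp1, Foxp2, Bcl11b, Rarb, Rxrg, Ikzf1 and Six3), chosen by name and followed through D1 and D2 neurons of BACHD and wild-type (WT) mice. All 10 were found among the 37620 gene identifiers of the deposited tables, and all 10 were among the 13400 genes that passed the filter on low counts. Male mice of the FVB/NJ background, aged 5 to 6 months, were used. BACHD mice are hemizygous for a bacterial artificial chromosome (BAC) that carries full-length mutant huntingtin with 97 glutamines under the regulatory sequences of the huntingtin gene, a model of Huntington's disease, and WT animals were littermates. The D1 WT and D1 BACHD groups also carried the Drd1-EGFP BAC, and the D2 WT and D2 BACHD groups the Drd2-EGFP BAC, so that the cell types also differ in reporter line. Neurons of the striatum, labelled dStr (read here as dorsal striatum), were sorted by green fluorescence. Each of the 4 groups is 1 library made from cells of 4 animals, with 150000 cells from each animal. No group has a replicate pool.

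Medium spiny neurons, the output cells of the striatum, fall into a direct pathway marked by dopamine receptor D1 and an indirect pathway marked by dopamine receptor D2. In mouse development Isl1, a LIM homeodomain factor, and Ebf1, a helix-loop-helix factor, are needed for direct-pathway neurons, while the zinc finger factor Sp9 and the homeodomain factor Six3 are needed for indirect-pathway neurons. Bcl11b (also known as Ctip2), the forkhead factor Foxp1 and the retinoid receptors Rarb and Rxrg are known from both pathways, and Rarb and Rxrg proteins can pair on DNA to respond to retinoic acid. Foxp2 is a forkhead factor known for its part in vocal learning. Ikzf1 (Ikaros) is a zinc finger factor best known from blood cells and, in developing mouse striatum, from enkephalin neurons.

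Promoter sequences of 3 factors are shown because these genes stand for the patterns described below: Isl1 for genes nearly restricted to the D1 libraries, Sp9 for the gene nearly restricted to the D2 libraries, and Rarb for genes at a similar level in all 4 libraries. Each is the 250 bases before the annotated start, 5′ to 3′ on the gene's strand (RefSeq, GRCm38.p6, at chr13:116309689-116309938 on the minus strand, chr2:73271676-73271925 on the plus strand and chr14:16575477-16575726 on the minus strand). Capitals mark CCAAT and GGGCGG on either strand and, in Rarb, GTTCA repeated after 6 bases, a form of the retinoic acid response element known from this promoter.
Isl1: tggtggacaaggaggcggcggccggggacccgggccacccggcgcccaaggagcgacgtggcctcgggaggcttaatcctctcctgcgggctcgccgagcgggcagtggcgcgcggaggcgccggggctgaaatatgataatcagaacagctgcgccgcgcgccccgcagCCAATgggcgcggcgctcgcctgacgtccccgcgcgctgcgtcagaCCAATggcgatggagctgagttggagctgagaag
Sp9: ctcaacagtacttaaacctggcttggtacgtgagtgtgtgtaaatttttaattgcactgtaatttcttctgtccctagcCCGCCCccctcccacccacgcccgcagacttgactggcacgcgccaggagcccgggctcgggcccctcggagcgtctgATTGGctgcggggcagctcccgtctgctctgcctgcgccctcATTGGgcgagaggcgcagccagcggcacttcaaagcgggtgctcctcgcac
Rarb: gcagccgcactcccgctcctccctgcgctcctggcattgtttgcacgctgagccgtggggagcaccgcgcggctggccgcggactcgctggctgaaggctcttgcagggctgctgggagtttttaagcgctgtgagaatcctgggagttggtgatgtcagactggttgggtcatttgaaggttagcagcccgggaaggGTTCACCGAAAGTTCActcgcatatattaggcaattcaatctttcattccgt
Of the 10 genes, 9 matched the RefSeq promoter table (Foxp2 did not), with 14 promoters in all. Among all 32851 promoters of 300 bases, 250 before and 50 after the start, CCAAT was found in 37.4%, GGGCGG in 35.7%, TATAAA in 13.6% and GTTCA repeated after 6 bases in 0.0761%, searched on both strands. The Rarb promoter held the last of these, and no other promoter of the 10 genes did. TATAAA was found in the Bcl11b promoter alone. The Isl1 window was 69.0% G and C with 37 CpG, and that of Sp9 63.7% with 25 CpG, where the medians over all promoters were 52.7% and 7.

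The libraries held 41325647 to 44523622 estimated counts, and mitochondrially encoded genes took 5.87% (WT) and 8.03% (BACHD) of counts for D1 and 8.37% and 9.34% for D2. The sort was checked on listed markers: all 5 direct-pathway markers were higher in D1 and all 4 measured indirect-pathway markers higher in D2 libraries (edgeR adjusted p under 0.05). The summed level of 7 cortical glutamatergic markers, in CPM (counts scaled to library size, here with TMM factors), was 26.9 (WT) and 125 (BACHD) for D1 and 1.495 and 1.82 for D2. The sum of 6 GABAergic interneuron markers was 22.1, 28.1, 6.19 and 6.20 CPM, and that of 9 microglia markers 34.1, 36.9, 39.4 and 46.5 CPM in the same order. For 10 oligodendrocyte markers it was larger, at 316, 366, 339 and 404 CPM, and for 6 astrocyte markers 29.2, 41.7, 45.5 and 47.3 CPM. The part of these in the results below was not tested, except where a value is given. In pooled libraries, fewer cells of a type and less RNA per cell cannot be told apart.

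Of the 10 factors, 6 differed between the cell types: Isl1, Ebf1, Ikzf1 and Foxp2 were higher in D1, and Sp9 and Foxp1 higher in D2 neurons. Bcl11b, Rarb, Rxrg and Six3 did not pass. Calls are edgeR quasi-likelihood tests over 2 pools of each cell type with genotype in the model, adjusted over all 13400 genes, of which 17% were called (10.2% higher in D1 and 6.81% higher in D2). Isl1, Ebf1 and Ikzf1 were under 1 CPM in both D2 libraries and passed the filter through the D1 libraries only, so a difference was built into their selection for the test.

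Among the direct-pathway factors, Isl1 stood at 58.7 (WT) and 63.8 CPM (BACHD) in the D1 pools and at 0.0920 and 0.233 CPM in the D2 pools, which were 2510, 2691, 4 and 10 counts. Both D1 libraries were high, and the D2 libraries were within a few reads of 0. The fitted difference, D2 minus D1, was -8.54 ± 0.16 (log2, SE; edgeR adjusted p = 3.87e-08). In WT alone Isl1 was 638-fold lower in D2 (log2 ratio -9.32, 95% counting interval -11.19 to -7.96), and in BACHD 274-fold lower (-8.10, interval -9.16 to -7.21). Isl1 is also known from cholinergic interneurons of the striatum, and the 4 of 6 cholinergic markers found in the tables summed to between 0.444 and 1.12 CPM in the 4 libraries, with Chat, their defining enzyme gene, at 8 to 31 counts and Gbx2 at 0 counts in D1 BACHD.

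Ebf1 stood at 34.2 and 32.2 CPM in D1 (WT, then BACHD) and at 0.368 and 0.0933 CPM in D2, the latter being 16 and 4 counts. The D1 and D2 libraries did not overlap, and the difference was -7.15 ± 0.22 (adjusted p = 5.12e-07). Foxp2 was lower in D2 without being absent from it: it stood at 203 and 180 CPM in the D1 pools against 73.1 and 64.3 in the D2 pools. Its difference was -1.48 ± 0.05 (adjusted p = 7.08e-07), and the ratio was nearly equal in the genotypes, with D2 at 36.0% of D1 in WT and 35.8% in BACHD. Deep-layer cortical neurons also express Foxp2, and the cortical markers were higher in D1 as well (26.9 and 125 CPM against 1.495 and 1.82 CPM). Their part in the result was not tested.

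Ikzf1 was the least abundant of the 10 in mean CPM, at 8.12 and 7.87 CPM in the D1 pools against 0.621 and 0.280 in the D2 pools, or 347, 332, 27 and 12 counts. It was thus high in the direct-pathway libraries, with a difference of -4.15 ± 0.26 (adjusted p = 3.32e-05). Microglia also express Ikzf1. The 9 microglia markers summed to 34.1 and 36.9 CPM in the D1 pools and 39.4 and 46.5 CPM in the D2 pools. They ran from Ptprc and Spi1, at 2 to 7 counts per library, to Csf1r at 302 to 580 and Aif1 at 808 to 964. Of the 9, 6 were tested, with 3 called higher in D2 and 0 higher in D1. The part of microglia in the result was not tested.

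Of the indirect-pathway factors, Sp9 stood at 2.76 and 2.51 CPM in the D1 pools against 70.7 and 71.0 in the D2 pools, or 118, 106, 3073 and 3046 counts. The D2 libraries lay close together and far above both D1 libraries, with a difference of 4.75 ± 0.09 (adjusted p = 3.07e-08). Six3, by contrast, stood at 58.0 and 54.0 CPM in the D1 pools against 61.0 and 65.7 in the D2 pools. On this scale both D2 libraries were above both D1 libraries, as for 25% of genes tested. In the deposited length-scaled values (FPKM), D1 WT stood above both D2 libraries (16.3 against 15.4 and 15.6). The difference of 0.18 ± 0.07 for Six3 did not pass (adjusted p = 0.116, unadjusted p = 0.0279). At an unadjusted p under 0.05 it would be the last of 7 factors, where 29.3% of genes pass.

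**Figure D1:**
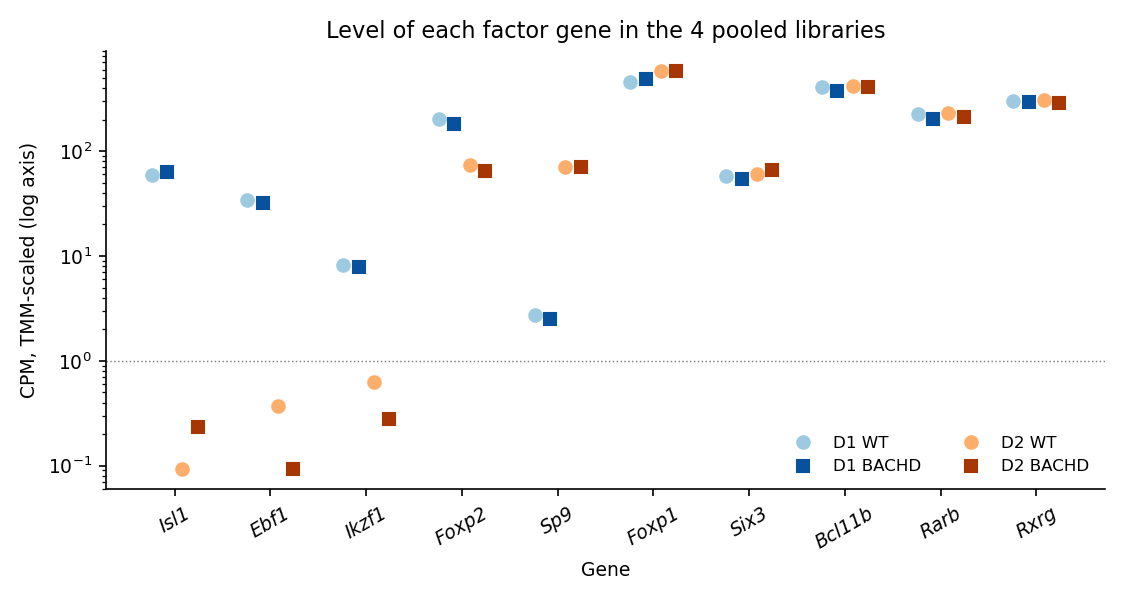
Level of each of the 10 factor genes in the 4 pooled libraries, in TMM-scaled CPM on a log axis, 1 point per library, with a dotted line at 1 CPM. Isl1, Ebf1 and Ikzf1 lie under the line in both D2 libraries, Sp9 is at 2.76 and 2.51 in D1 and at 70.7 and 71.0 in D2, and Bcl11b, Rarb, Rxrg and Six3 lie close together in all 4.

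The level left in the other sort was compared with that of the marker genes. In D2 WT, Isl1 stood at 0.157% of its D1 WT level, Ebf1 at 1.08% and Ikzf1 at 7.65%. Drd1 itself, the gene behind the D1 reporter, stood at 2.02% and Pdyn, which encodes prodynorphin, at 0.334%. In D1 WT, Sp9 stood at 3.90% of its D2 WT level, where Drd2 stood at 0.964% and Adora2a, the adenosine receptor gene of indirect-pathway neurons, at 1.14%. Isl1 and Ebf1 therefore lay at or below the share of Drd1, and Ikzf1 and Sp9 above those of the receptor genes. Tac1, another direct-pathway marker, stood at 10.4%, above Ikzf1. In D2 BACHD, Isl1 stood at 0.366%, Ebf1 at 0.289% and Ikzf1 at 3.56% of the D1 BACHD level. Drd1 stood there at 1.63%, Pdyn at 0.138% and Tac1 at 8.53%. Reads of Sp9 may be shared with Cir1, a gene on the opposite strand with 270 bases of exon in common that held 1892 to 2276 counts in every library, since the use of strand is not given.

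Among the factors known from both pathways, Foxp1 was higher in D2 by a small margin, at 458 and 487 CPM in the D1 pools against 585 and 582 in the D2 pools. The groups did not overlap and the difference was 0.31 ± 0.05 (adjusted p = 0.00618), but the call was lost without the filter (adjusted p = 0.0598) and, in fits of cell type alone, without D1 WT (0.0622), D2 WT (0.148) or D2 BACHD (0.146). Over all alternatives the adjusted p of Foxp1 ran from 5.52e-05 to 0.148. Bcl11b stood at 409 and 373 CPM in the D1 pools against 419 and 412 in the D2 pools (0.09 ± 0.05, adjusted p = 0.321). Rarb stood at 226 and 204 CPM in the D1 pools against 232 and 211 in the D2 pools (0.04 ± 0.05, adjusted p = 0.618). Rxrg was the most even, at 301 and 295 CPM in the D1 pools against 308 and 291 in the D2 pools (0.01 ± 0.05, adjusted p = 0.953). For Bcl11b, Rarb and Rxrg the differences between cell types were under 0.1 on the log2 scale. In TMM-scaled CPM, both D2 pools stood above both D1 pools for Sp9, Foxp1, Bcl11b and Six3 (25% of genes). Both D1 pools stood above both D2 pools for Isl1, Ebf1, Foxp2 and Ikzf1 (26.9% of genes). For Bcl11b and Six3 the order depended on the scale. In the deposited length-scaled values (FPKM), Bcl11b stood at 51.7 in D1 WT against 50.4 and 49.7 in D2, and Six3 at 16.3 against 15.4 and 15.6. The differences of Rarb (-0.024) and Rxrg (-0.060) changed sign when total counts set the scale.

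Among the 10, 4 factors (Isl1, Ebf1, Sp9 and Ikzf1) were called with a difference of at least 4 in size (log2), as were 0.582% of genes tested. With Foxp2, 5 factors were called with at least 1, as were 4.28% of genes. The same 5 factors (Isl1, Ebf1, Sp9, Foxp2 and Ikzf1) passed a 2-fold ratio with a counting interval that excludes 1 in WT and in BACHD, where 4.81% and 4.78% of genes did. Isl1, Ebf1 and Ikzf1 passed the filter through the D1 libraries only, so their part in these counts was built in. The 10 genes were also chosen as known factors of these neurons, so the counts are no test against the shares over all genes.

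**Figure D2:**
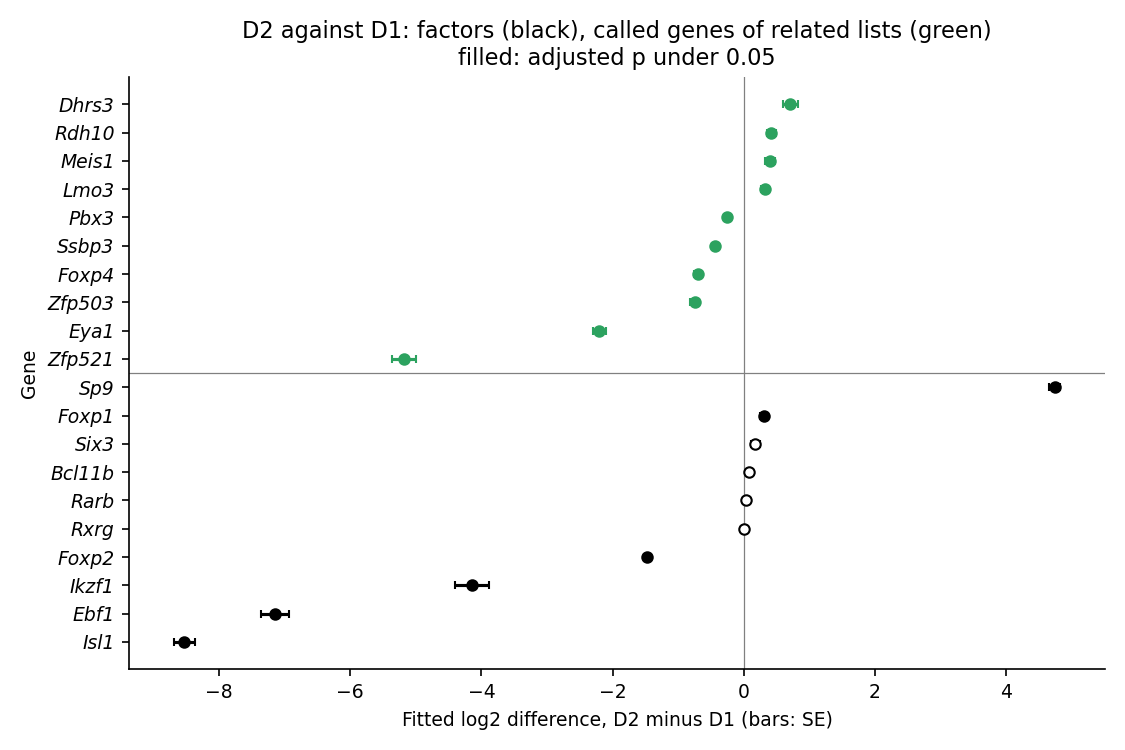
Fitted difference between D2 and D1 neurons (log2, bars show SE) for the 10 factors in black and for called genes from the related lists in green, filled where the adjusted p was under 0.05. Isl1, Ebf1 and Ikzf1 lie far to the D1 side, Zfp521 with them, and Sp9 at 4.75 is the one gene shown far to the D2 side.

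Length-scaled levels allow the 10 genes to be set beside each other. By deposited FPKM (fragments per kilobase of transcript, scaled to library size), the order in D1 WT was Rxrg (172), Foxp1 (131), Rarb (85.3), Bcl11b (51.7), Foxp2 (32.0), Isl1 (26.6), Six3 (16.3), Ebf1 (6.12), Ikzf1 (1.72) and Sp9 (1.001). In D2 WT the first 4 kept that order at 169, 164, 83.4 and 50.4 FPKM, followed by Sp9 (15.7), Six3 (15.4), Foxp2 (10.9), Ikzf1 (0.1597), Isl1 (0.0997) and Ebf1 (0.0601). The places of Rxrg (163 to 172 FPKM over the 4 libraries) and Foxp1 (131 to 180 FPKM) overlapped. In D2, Sp9 (15.7 and 15.9 FPKM) and Six3 (15.4 and 15.6 FPKM) lay close together, and their order was not tested. The 4 factors known from both pathways were thus more abundant per length than the others in these libraries.

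Within their families most of the 10 were the main expressed member. Rarb made up 83.4% to 86.7% of the summed FPKM of Rara, Rarb and Rarg, and Rxrg 73.2% to 75.2% of that of the Rxr genes, in which Rxrb stood at 49.5 to 55.3 FPKM. Bcl11b stood at 47.0 to 51.7 FPKM beside Bcl11a, its close relative, at 26.0 to 28.2. Foxp1 made up 73.0% of Foxp FPKM in D1 WT and 88.8% in D2 WT. Isl2 and Six6 were listed at 0 in all 4 libraries. Foxp2 and Ikzf1 were not the main members of their families. Foxp2 made up 17.8% and 13.8% of Foxp FPKM in the D1 pools and 5.94% and 4.76% in the D2 pools, and in D2 BACHD it stood below Foxp4 (9.49 and 9.81 FPKM). For Ikzf1, both Ikzf5 (5.14 to 6.62 FPKM) and Ikzf4 (3.55 to 4.79 FPKM) stood above its 1.72 FPKM in D1 WT. In D2 WT, where Ebf1 was scarce, Ebf4 made up 75.6% of a summed Ebf level of less than 1 FPKM.

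**Figure D3:**
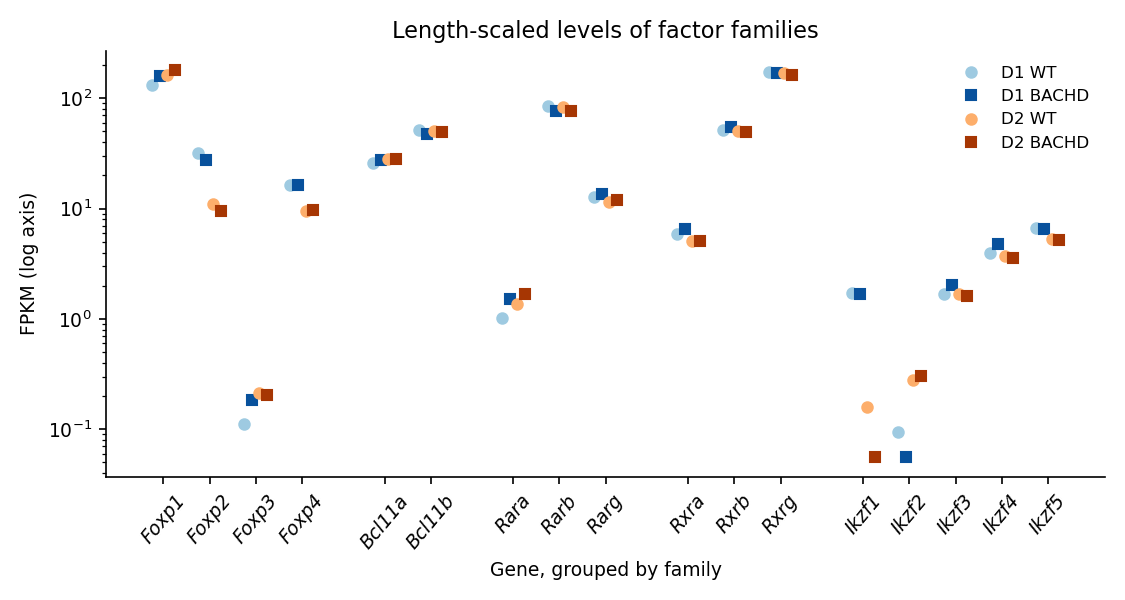
Deposited FPKM on a log axis for the Foxp, Bcl11, Rar, Rxr and Ikzf families, 1 point per library. Rarb (76.2 to 85.3) and Rxrg (163 to 172) lie above their relatives in every library, while Ikzf1 (1.72 in D1 WT) lies below Ikzf4 and Ikzf5.

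Related genes were taken from 4 lists. Their counts of calls between the cell types stand beside 17% of all genes tested, 10.2% higher in D1 and 6.81% higher in D2. Of 21 paralogues of the 10 factors, 10 were tested, with 1 higher in D1 and 1 higher in D2. Foxp4 stood at 48.9 and 51.3 CPM in the D1 pools against 29.8 and 32.1 in the D2 pools (-0.69 ± 0.06, adjusted p = 0.000203), so that it and Foxp2 were higher in D1 while Foxp1 was higher in D2. Rxrb (105 to 113 CPM) and Bcl11a (77.3 to 85.2 CPM), the most abundant of the paralogues, were not called (adjusted p = 0.712 and 0.244).

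Of 27 other transcription factor genes of striatal development, 20 were tested, with 4 higher in D1 and 3 higher in D2. Zfp503 (Nolz1), a zinc finger gene of striatal progenitors, was higher in D1 (-0.75 ± 0.07, adjusted p = 0.000242), as was Pbx3 (-0.25 ± 0.05), and the homeobox genes Meis1 (0.40 ± 0.08) and Meis2 (0.21 ± 0.05) were higher in D2. Meis2, at 501 to 591 CPM, and Mef2d, at 256 to 283 CPM, had the highest levels of that list.

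Of 16 cofactor genes, 12 were tested, with 3 called each way. Zfp521, whose protein binds and restrains Ebf1, stood at 30.5 and 29.1 CPM in the D1 pools against 1.13 and 0.513 in the D2 pools (-5.18 ± 0.19, adjusted p = 1.24e-06), and Eya1, a coactivator known to partner Six3-related proteins, was also higher in D1 (-2.20 ± 0.10). Ssbp3, which works with LIM factors, was higher in D1 (-0.43 ± 0.05), and the LIM-only gene Lmo3 higher in D2 (0.32 ± 0.05). Ldb1, the adaptor of LIM homeodomain proteins such as Isl1, stood at 156 to 188 CPM and was slightly higher in D2 (0.23 ± 0.05, adjusted p = 0.0182), where Isl1 was scarce.

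Of 16 retinoid pathway genes, 11 were tested, with 2 higher in D2 and 1 in D1. Dhrs3, which reduces retinaldehyde, stood at 11.7 and 15.4 CPM in the D1 pools against 22.3 and 21.8 in the D2 pools (0.71 ± 0.11, adjusted p = 0.00331), and Rdh10, which oxidises retinol, was also higher in D2 (0.42 ± 0.07). The corepressor gene Ncor1 (160 to 180 CPM) and the coactivator gene Ncoa1 (123 to 139 CPM) were the most abundant and were not called. The retinoic acid synthesis genes Aldh1a1, Aldh1a2 and Aldh1a3 each held 18 or fewer counts per library.

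The genes whose profile over the 4 libraries was most like that of each factor were taken as those with the smallest Euclidean distance between log2 CPM values centred on their mean, where mean levels reached 10 CPM. An offset of 0.05 CPM was added to each value before the logarithm. Nearest to Isl1 was Pdyn (distance 1.44, with 262 and 322 CPM in the D1 pools and 0.874 and 0.443 CPM in the D2 pools). Both were high in D1. Within D2, Isl1 (0.0920 and 0.233 CPM, or 4 and 10 counts) was higher in BACHD and Pdyn lower. Among the nearest to Ebf1 was Drd1 (1.51). Nearest to Foxp2 were Cdkl4 (0.0845), Cpne9 (0.135) and Onecut2 (0.163). Sp9 had Nt5e, the gene of an enzyme that makes adenosine, and Cwc22, a splicing factor gene, among its nearest (0.295 and 0.471), and Ikzf1 had Tac1, the substance P precursor gene (0.801), and Sfxn1 (0.821). Others among the nearest genes (Tpm3-rs7, Vcp-rs, Gm11847 and Rpl7a-ps11) have near-identical copies by name or are not characterised here, and their counts are uncertain. A profile like that of a factor may also follow the reporter line, which differs between the D1 and D2 groups, and this was not tested.

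Between genotypes, none of the 10 factors was called by edgeR over both cell types, where 0.44% of the genes tested were (0.157% higher and 0.284% lower in BACHD). At an unadjusted p under 0.05 there were 2 factors, Foxp2 and Rarb, and 13.4% of genes. DESeq2 called 77 genes and none of the 10. With limma-trend on log2 FPKM, 0 of all genes tested were called with 0.1 added and 1 with 1 added. That fit therefore could not decide for the 10. The fitted changes, BACHD minus WT, had a median of -0.07 over the 10 factors and 0.01 over all genes tested.

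Foxp2 had the smallest unadjusted p (0.00534). It stood at 203 and 180 CPM in the D1 pools against 73.1 and 64.3 in the D2 pools, lower in the BACHD pool each time, with log2 ratios of -0.18 (95% counting interval -0.22 to -0.13) and -0.19 (-0.26 to -0.11). The fitted change was -0.18 ± 0.05 (edgeR adjusted p = 0.186). Rarb stood at 226 and 204 CPM in the D1 pools against 232 and 211 in the D2 pools, with ratios of -0.15 (-0.19 to -0.11) and -0.14 (-0.18 to -0.10) and a fitted change of -0.15 ± 0.05 (adjusted p = 0.254). Foxp2 and Rarb were the 2 factors whose counting interval lay below a ratio of 1 in both cell types, as for 8.87% of genes, and no factor had it above 1 in both, as had 6.37% of genes. In D1 alone the interval lay above 1 for Isl1 and Foxp1 (20.3% of genes) and below 1 for Foxp2, Bcl11b, Rarb and Six3 (21.5%). In D2 it lay above 1 for Six3 (18.6%) and below 1 for Ebf1, Foxp2, Rarb, Rxrg and Ikzf1 (18.5%). Six3 was thus the 1 factor with intervals on opposite sides, as for 4.66% of genes. Counting intervals leave out variation between pools, which was not measured.

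Rxrg, the partner of Rarb, had a ratio of -0.03 (-0.06 to 0.01) in D1 and -0.08 (-0.12 to -0.05) in D2 (fitted change -0.06 ± 0.05, adjusted p = 0.674). Bcl11b was lower in D1 BACHD, at 373 against 409 CPM (-0.13, interval -0.16 to -0.10), and close in D2, at 412 and 419 CPM (-0.02, interval -0.05 to 0.01). Bcl11b, like Foxp2, is also expressed by deep-layer cortical neurons, whose markers summed to 26.9 CPM in D1 WT and 125 CPM in D1 BACHD, and their part in these ratios was not tested. Foxp1 stood at 458 and 487 CPM in D1 (0.09, interval 0.06 to 0.12) and at 585 and 582 CPM in D2 (-0.01, interval -0.03 to 0.02).

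Isl1, Ebf1, Ikzf1 and Sp9, the factors that most separate the pathways, had log2 ratios between genotypes of at most 0.12 in size where abundant. Isl1 in D1 had a ratio of 0.12 (interval 0.04 to 0.20), Ebf1 in D1 -0.08 (-0.19 to 0.02), Ikzf1 in D1 -0.05 (-0.27 to 0.18) and Sp9 in D2 0.01 (-0.07 to 0.08). The Isl1 interval excluded equal levels. By deposited FPKM, however, Isl1 was nearly level in D1, at 26.6 (WT) and 26.9 (BACHD). That log2 ratio was 0.015 with 0.1 added, below the counting interval. Foxp2, also called between the cell types, was lower in BACHD in both, as given above. None of the 10 passed 2-fold, with an interval that excludes equal levels, in D1, where 1.28% of genes did. In D2, Ebf1 (16 and 4 counts, ratio -1.98, interval -4.02 to -0.35) and Ikzf1 (27 and 12 counts, ratio -1.15, interval -2.27 to -0.12) stood past 2-fold lower in BACHD, where 0.575% of genes passed in either direction. Isl1 pointed the other way in D2 (4 and 10 counts, ratio 1.34), with an interval that includes 0 (-0.45 to 3.47), and was not counted. All 3 were under 1 CPM there. Lower levels in D2 BACHD were not particular to Ebf1 and Ikzf1. All 5 direct-pathway markers also had ratios below 1 in D2, with a median of -0.46 (log2). Pdyn was at -0.98 (38 and 19 counts) and Drd1 at -0.47. What these falls share was not tested. By deposited FPKM, Isl1 stood at 0.0997 in D2 WT and 0.0939 in D2 BACHD, so the direction of its counts was not kept. By FPKM as by counts, Ebf1 (0.0601 and 0.0239) and Ikzf1 (0.1597 and 0.0558) were lower in D2 BACHD than in D2 WT. Neither passed 2-fold as a ratio of FPKM with 0.1 added. For Ebf1 that ratio cannot decide, because both values lie below 0.1 and even a fall to 0 would not reach 2-fold. In all, 6 factors (Ebf1, Foxp2, Bcl11b, Rarb, Rxrg and Ikzf1) had ratios below 1 in both cell types, as had 28.7% of genes. Among the lists of related genes, no gene tested was called between genotypes by edgeR.

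**Figure D4:**
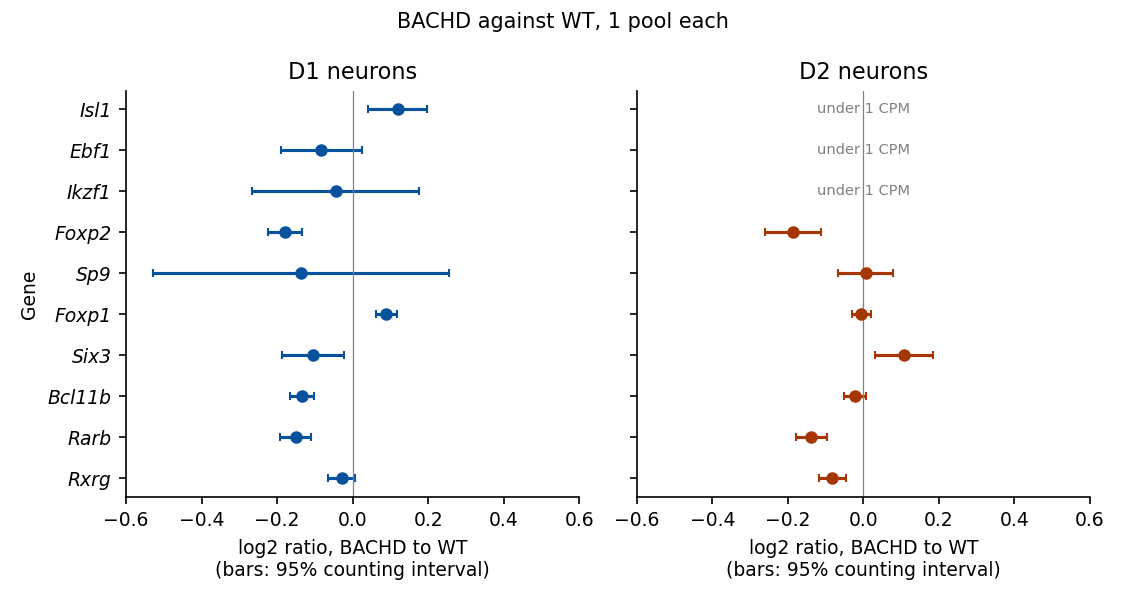
Log2 ratio of BACHD to WT for the 10 factors in D1 neurons (left) and D2 neurons (right), 1 pool of each genotype, with 95% counting intervals as bars. Foxp2 (-0.18 and -0.19) and Rarb (-0.15 and -0.14) lie below 0 on both sides, and Isl1, Ebf1 and Ikzf1 are not drawn for D2, where they were under 1 CPM.

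The deposited tables differ for Foxp1. By FPKM its BACHD pools stood higher by log2 ratios of 0.27 for D1 and 0.14 for D2 (with 0.1 added to each value), above the counting intervals of the count ratios. Dividing CPM on library totals by FPKM gives the transcript length that the authors' values imply, and for Foxp1 it was 3.58 (WT) and 3.15 kb (BACHD) for D1 and 3.49 and 3.17 kb for D2. Both BACHD libraries were shorter than both WT libraries. Six3 moved the other way, at 3.65 (WT) and 4.07 kb (BACHD) for D1 and 3.86 and 4.12 kb for D2, with log2 changes of 0.16 and 0.10 relative to the median gene. For Foxp1 the log2 change relative to the median gene was -0.18 in D1 and -0.13 in D2, and 0.546% of genes tested were at least as short in both comparisons, a share looked up after the values were seen. The implied lengths of Bcl11b (8.10 to 8.11 kb) and Rarb (2.71 to 2.72 kb) were nearly constant. For Sp9 it was 2.83 and 3.43 kb in D1 and 4.40 and 4.36 kb in D2. Foxp1 shares 300 bases of exon with Gm20696 on the same strand, which held 4.39 to 12.4 estimated counts per library.

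**Figure D5:**
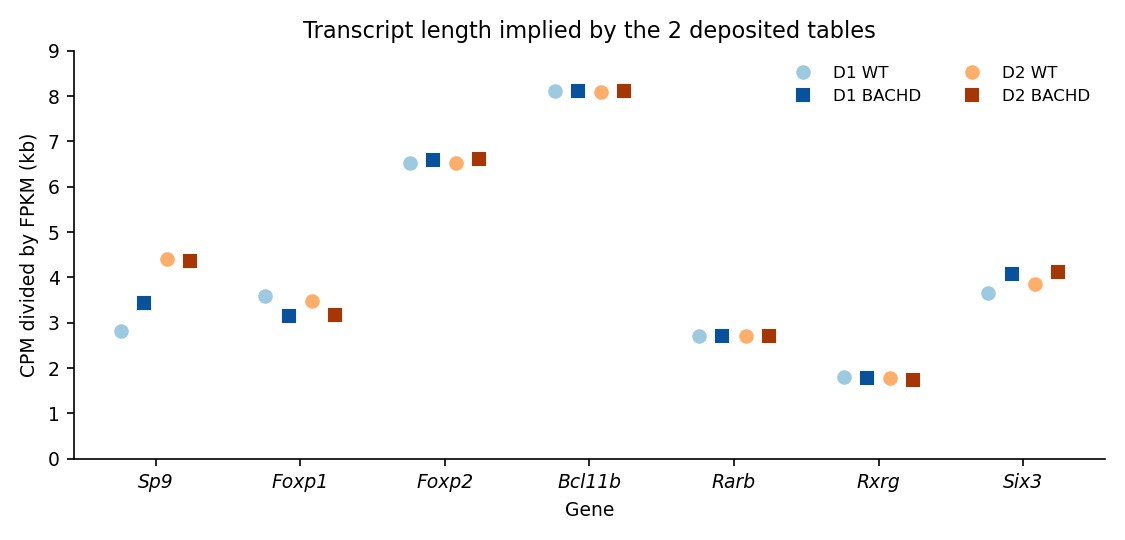
Transcript length in kb implied by the deposited values (CPM on library totals divided by FPKM) for the 7 factors at 1 CPM or more in all libraries, 1 point per library. Foxp1 is at 3.58 and 3.49 in the WT and at 3.15 and 3.17 in the BACHD libraries, Six3 is at 3.65 and 3.86 in the WT and at 4.07 and 4.12 in the BACHD libraries, and Bcl11b and Rarb are level.

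Isl1 (ENSMUSG00000042258) lies on chromosome 13 at 116298281 to 116309689, Ebf1 (ENSMUSG00000057098) on chromosome 11 at 44617317 to 45008091, Sp9 (ENSMUSG00000068859) on chromosome 2 at 73271925 to 73284706, and Foxp2 (ENSMUSG00000029563) on chromosome 6 at 14901349 to 15441977 (GENCODE M21, GRCm38). Foxp1 (ENSMUSG00000030067) lies on chromosome 6 at 98925338 to 99522721 and Rarb (ENSMUSG00000017491) on chromosome 14 at 16430839 to 16819156. Bcl11b (ENSMUSG00000048251) lies on chromosome 12 at 107910403 to 108003602, Rxrg (ENSMUSG00000015843) on chromosome 1 at 167598384 to 167639623, Ikzf1 (ENSMUSG00000018654) on chromosome 11 at 11685003 to 11772926, and Six3 (ENSMUSG00000038805) on chromosome 17 at 85613608 to 85629302. Of the 10, 4 (Ebf1, Foxp1, Foxp2 and Rarb) span at least 300 kb, as do 3.46% of genes tested. Exons of Rarb share 1793 bases with Top2b on the opposite strand, which held 4063 to 4534 counts per library, and those of Six3 share 106 bases with the antisense transcript Six3os1, so reads of these pairs may be split uncertainly.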

How the data were processed

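RNA was sequenced from 4 pooled libraries of sorted striatal neurons, 1 per group. The extraction text of the labels speaks of frozen tissue, while the design text describes sorted cells. The authors deposited estimated counts per gene, 19.4% of entries not whole, and FPKM values scaled by gene length and library size. The submitters' processing notes name CASAVA 1.8.2. For alignment, counting, strand, annotation and genome build, tools and settings were not stated in any source used.

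Counts were rounded to whole numbers. Symbols matched 32897 of 37620 identifiers. Genes with at least 1 CPM in 2 or more libraries were kept (13400) and scaled by TMM. edgeR 4.0.16 (R 4.3.3) fitted quasi-likelihood models with cell type and genotype over all 4 libraries, which leaves 1 residual degree of freedom and a median of 6.67 prior degrees. That residual compares the genotype change of D1 with that of D2, so p-values do not measure spread between pools of 1 group. SE is the absolute log2 change divided by the square root of F. The threshold for a call was 0.05 after Benjamini-Hochberg adjustment. Single libraries were compared by ratios with exact binomial 95% intervals, with counts under 3 set to 3, which cover counting error only. A count of 3 was 0.0674 to 0.0726 CPM.

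The 10 genes and the lists were chosen with earlier results of these data known. Named from each list were up to 4 called genes per term with a mean of at least 5 CPM and the 2 most abundant, and genes outside this rule were chosen after their values were seen. Of the listed genes, Gpr52, Slc18a3 and Lhx8 were not matched, and some named genes are not reported here. Alternatives were total counts or DESeq2 size factors as scale, DESeq2 1.42.0, no filter, a filter of 10 CPM, limma-trend (limma 3.58.1) on log2 FPKM plus 0.1 or 1, only the term tested, a ratio of 1.5, and each library left out. The steps were tested on simulated data.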

Additional observations from a re-analysis of the deposited data

Results flagged for a closer look

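Six3 pointed opposite ways in the cell types. BACHD against WT, its log2 ratio came to -0.105 in D1 neurons (58.0 and 54.0 CPM, 95% counting interval -0.187 to -0.022) and 0.108 in D2 neurons (61.0 and 65.7 CPM, interval 0.031 to 0.185), as counting intervals excluded 1 in opposite directions for 4.66% of genes tested. With 1 pool per group the difference was not tested. By FPKM with 0.1 added the ratios were -0.27 and 0.02, and Six3os1, the antisense transcript that shares exon bases with Six3, held 657 and 609 estimated counts in the D1 pools (WT, BACHD) and 852 and 747 in the D2 pools.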

How the results depend on the processing

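Between cell types, 5 or 6 of the 10 factors were called under each alternative, against 6. The number of genes called was 2274, and 1330 by DESeq2, 810 without the filter, 1449 with cell type as the only term and 821 to 1400 with a library left out. Of the calls, 40.1% were higher in D2, and 25.1% with total counts and 27.5% with limma-trend on FPKM plus 0.1. Signs changed for Rarb with total counts (-0.024) and with limma-trend at either pseudocount (-0.020), and for Rxrg with total counts (-0.060), limma-trend (-0.039 at either) and a filter of 10 CPM (-0.000388), none of them called. With a library left out Rarb ran from -0.029 to 0.12 and Rxrg from -0.035 to 0.048.

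Between genotypes 0 of the 10 factors were called under each alternative run. The number of genes called was 59, and 143 with total counts, 1 with limma-trend on FPKM plus 1, and 0 without the filter, with limma-trend on FPKM plus 0.1, with genotype as the only term (1595, 1712 and 382 at unadjusted p under 0.05) and with any library left out (138 to 245). Signs changed for Six3 without the filter (-0.00162) and with limma-trend (-0.13 and -0.12), for Isl1 with limma-trend on FPKM plus 0.1 (-0.014), and for Sp9 with genotype as the only term (0.00129). With a library left out, genotype alone was fitted and the cell types were then unequal between genotypes, so that the fitted changes ran from -6.96 to 8.40 for Isl1, -7.49 to 5.45 for Ebf1, -3.95 to 2.71 for Ikzf1, -3.87 to 3.73 for Sp9, -1.10 to 0.74 for Foxp2, -0.13 to 0.22 for Foxp1 and -0.14 to 0.14 for Six3. In D2 neurons, 2 factors (Ebf1 and Ikzf1) passed 2-fold with a counting interval that excludes equal levels, and 0 passed as a ratio of FPKM plus 0.1 or plus 1. Ebf1 was under 0.1 FPKM and Ikzf1 under 1 FPKM in both D2 libraries. A fall therefore could not reach 2-fold for Ebf1 with either value added, or for Ikzf1 with 1 added. No paired analysis was possible because each group is 1 library and the labels give no replicate numbers. Depth limits Isl1, Ebf1 and Ikzf1 in D2 neurons, at 4 to 27 counts.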

Other observations

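Some genes of the related lists with a mean under 5 CPM differed between the cell types, and are named here after their values were seen. Ikzf2 (Helios), an Ikaros family gene known from indirect-pathway neurons in mouse, stood at 0.866 and 0.521 CPM in the D1 pools against 2.71 and 2.94 in the D2 pools (D2 minus D1 2.03 ± 0.27, log2, SE; edgeR adjusted p = 0.00171), opposite to Ikzf1. Ikzf2 was under 1 CPM in both D1 pools and passed the filter through the D2 pools only, so a difference was built into its selection for the test. Dlx2, a homeobox gene of ventral forebrain progenitors, was higher in D2 (1.72 ± 0.23, adjusted p = 0.00188), at 4.65 (WT) and 2.91 CPM (BACHD) in the D2 pools. Its neighbour Dlx1 stood at 6.21 and 2.17 CPM in the D2 pools against 1.68 and 2.27 in the D1 pools (adjusted p = 0.153). Nr2f1, a nuclear receptor gene also known from cortical neurons, was higher in D1 (-1.94 ± 0.23, adjusted p = 0.000981), at 3.86 CPM in D1 WT and 7.46 in D1 BACHD, the library with the higher cortical markers. The part of cortical neurons in the Nr2f1 level was not tested. The retinoic acid binding protein gene Crabp1 was higher in D1 (-1.20 ± 0.18, adjusted p = 0.00306).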
